A study of Mus musculus with 24 samples.

Results

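The miR-181 family of mouse comprises 4 mature microRNAs (miRNAs), mmu-miR-181a-5p, mmu-miR-181b-5p, mmu-miR-181c-5p and mmu-miR-181d-5p, written below without the species prefix. They were picked out by their names among the 1950 mature miRNAs listed in at least 1 of the 3 deposited tables of lung small RNA sequencing. All 4 were listed in each of the 3 tables and passed the filter on low counts in each comparison. The mice were of the inbred strain C57BL/6 and 6 to 8 weeks old by the labels, and their lungs were sampled at day 14, day 90 and day 180. Irradiated mice received X-rays to the whole thorax at a total dose of 15 Gy, and control mice carry the label control with no dose given. There were 6 groups of 4 libraries each, 24 in all, made from pieces of whole lung. Whether each library is a separate animal, and what the days of control mice are counted from, is not in the labels, so a p-value measures the spread between these libraries, which may be technical.

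A miRNA guides an Argonaute protein to messenger RNAs, and its seed, the bases near its 5′ end, largely sets which sites it pairs with, so that miRNAs with one seed are predicted to share targets. The miR-181 family is known for its abundance in thymus and lymphocytes, where miR-181a tunes the strength of T cell receptor signalling, and miR-181b is known to dampen NF-κB signalling in endothelial cells by lowering an importin. Its genes lie in pairs that are transcribed together, so an a gene sits beside a b gene, and the c gene sits beside the d gene.

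The sequences are shown because all later comparisons rest on telling these near-identical RNAs apart. Mature sequences are from RefSeq (GRCm38.p6), 5′ to 3′, and the capitals mark the seed, bases 2 to 8.
miR-181a-5p: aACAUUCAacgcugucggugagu
miR-181b-5p: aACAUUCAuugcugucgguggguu
miR-181c-5p: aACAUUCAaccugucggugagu
miR-181d-5p: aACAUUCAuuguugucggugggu

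The seed ACAUUCA occurred in 4 of the 1679 mature miRNAs of the RefSeq table, and these 4 were the family. Counted from 1 at the 5′ end, miR-181b-5p differed from miR-181a-5p over 23 compared bases by A9U, C10U and A21G. The only difference of miR-181d-5p from miR-181b-5p over 23 bases was C12U. The sequence of miR-181c-5p was that of miR-181a-5p with 1 base removed. The authors' rule on mismatches when counting was not found in the labels or headers. Reads could therefore be shared or split between these members, and the values of single members are uncertain to that extent. Some miRNAs outside the family had identical counts to another miRNA in every library of a table (17 miRNAs with a summed count of at least 100 in the day 14 table, 17 at day 90 and 0 at day 180), and 0 of the 4 members were among them.

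The same miR-181a-5p and miR-181b-5p sequences are each made from 2 hairpins, so their counts are sums over 2 loci. On chromosome 1 of GRCm38, the hairpin Mir181a-1 lies at chr1:137966455-137966541 and Mir181b-1 at chr1:137966639-137966718, both on the plus strand with 97 bases between them. The annotation places both within an intron of Gm4258 and an exon of the long noncoding RNA gene A430106G13Rik. On chromosome 2, Mir181a-2 at chr2:38852735-38852810 and Mir181b-2 at chr2:38853830-38853918 lie 1019 bases apart on the plus strand, opposite to an intron of the protein-coding gene Nr6a1. The c and d members each have a single locus. Mir181c at chr8:84178873-84178961 and Mir181d at chr8:84178716-84178787 lie 85 bases apart on the minus strand, within an intron of Nanos3 on the same strand.

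The family took between 2.86% and 4.04% of the miRNA counts of a library. miR-181a-5p was the most abundant member, with rank 10 to 13 among the miRNAs of a table by mean level in the 6 groups. miR-181b-5p ranked 51 to 66 and miR-181c-5p 52 to 59, while miR-181d-5p ranked 129 to 186. In control lungs at day 14, miR-181a-5p made up 74.1 ± 1.96% of the family's counts, miR-181c-5p 13.3 ± 1.15%, miR-181b-5p 11.3 ± 1.13% and miR-181d-5p 1.26 ± 0.18% (SD, n = 4 libraries). The order a above c and b, and d last, held in every group by mean share. The order of b and c did not: their ranges overlapped in the controls of day 14 and in both groups of day 90. In irradiated lungs of day 14, b (11.9% to 12.8%) lay above c (8.65% to 11.7%). At day 180, c lay above b in controls (13.5% to 14.4% against 9.51% to 11.9%) and in irradiated lungs (12.2% to 14.7% against 4.13% to 11.4%). Mature lengths are 22 to 24 bases, so no correction for length was made. How well adaptors joined each RNA was not measured.

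Total miRNA counts were 2832205 to 3695133 per library, and the rarest member in the shallowest case still had 336 counts. Markers of lung cells were abundant in all libraries: endothelial miR-126a-3p stood at 28356 to 46738 CPM (counts per 1000000 counts of a library, after scaling) and epithelial miR-200c-3p at 9269 to 21852 CPM. Irradiated library 1 of day 180 stood apart, with the lowest total (2832205) and a median rank correlation with the other libraries of its day of 0.914, against 0.940 to 0.969 in all others. Control library 2 of day 14 held far more miR-206-3p, a miRNA of skeletal muscle (640 CPM against 5.12 to 16.1 in the other 3), and more miR-205-5p, a miRNA of stratified epithelium (731 against 30.1 to 61.2 CPM). Values without the library concerned are given beside several of the results it moves.

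**Figure D1:**
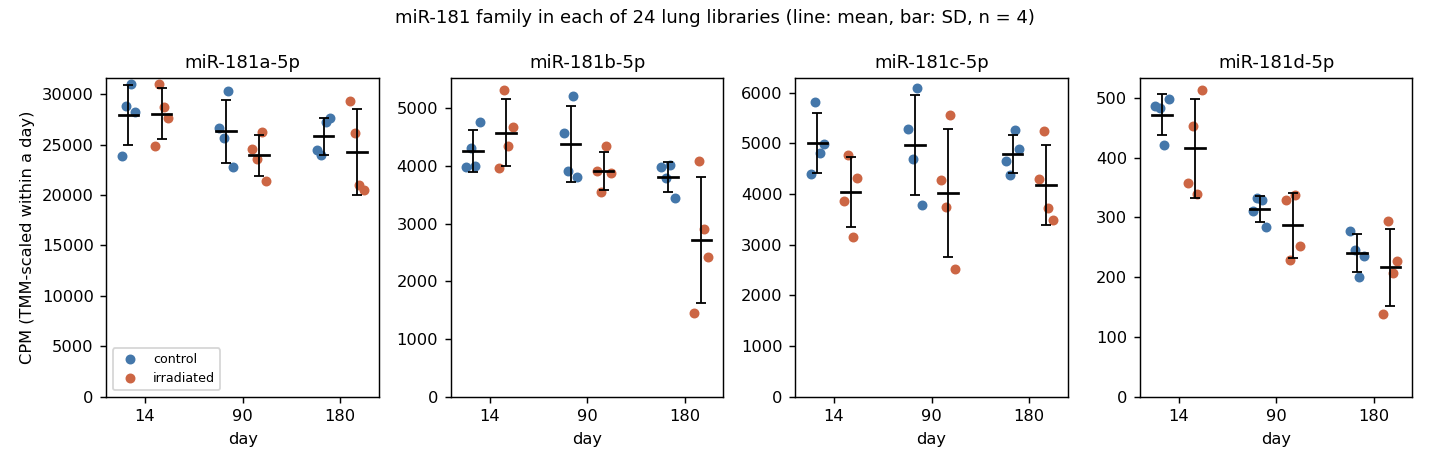
Level of each miR-181 family member in all 24 libraries, in CPM scaled within a day, against day, for control (blue) and irradiated (red) lungs; points are libraries, lines means and bars SD (n = 4). Control and irradiated points overlap in every panel and day, and the miR-181d-5p points step down from day 14 to day 180.

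The first comparison asked whether thoracic irradiation moved the family at each day. At day 14, miR-181a-5p, which tunes T cell receptor signalling, was measured at 23880, 28819, 30957 and 28238 CPM in the control libraries and at 24900, 31006, 28701 and 27597 CPM in the irradiated ones. The irradiated values lay in the range of the controls apart from 1 slightly higher library. The log2 fold change was 0.00 ± 0.11 (SE; adjusted p = 0.991, edgeR), with a 95% interval from -0.23 to 0.24.

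For miR-181b-5p at day 14, control libraries gave 3982, 4304, 3999 and 4760 CPM and irradiated libraries 3961, 5321, 4341 and 4678 CPM. These sets overlapped, with a log2 fold change of 0.10 ± 0.12 (adjusted p = 0.919). Both members of the a and b clusters were thus measured within their own spread at this day.

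The c and d members were measured lower on average at day 14. miR-181c-5p stood at 4397, 5812, 4809 and 4986 CPM in controls and at 3864, 4778, 3160 and 4323 CPM in irradiated lungs. In 3 of 4 irradiated libraries it was below the lowest control, and the fourth overlapped. The log2 fold change was -0.31 ± 0.15 (95% interval -0.64 to 0.02, adjusted p = 0.883), without irradiated library 3 it was -0.20, and without control library 2 it was -0.22. The labels do not say that equal replicate numbers are pairs, but libraries of equal number deviated together at this day (correlations of 0.172 to 0.465). Read as pairs by number, the level of c was lower in the irradiated library in 4 of 4 pairs. How many of all miRNAs had pairs that all went the same way was not counted. With the numbers as a block the log2 fold change was -0.32 (adjusted p = 0.698).

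Within the family, the share taken by miR-181c-5p at day 14 ranged over 12.0% to 14.7% among controls and 8.65% to 11.7% among irradiated lungs, so that all 4 irradiated libraries lay below all 4 controls. As a share of the family's own counts, this needs no scaling between libraries. Several shares and ratios were read at each day, most overlapped between control and irradiated lungs, and none was tested. miR-181d-5p ranged over 421 to 498 CPM among controls and 338 to 514 CPM among irradiated lungs, which overlapped (log2 fold change -0.18 ± 0.17, adjusted p = 0.919). The test called 0 of the 4 members at day 14, and 0% of the 499 miRNAs tested (27 had an unadjusted p under 0.05, and DESeq2 called 1). With groups that did not overlap there were also 0 of 4 members, against 2.4% of all miRNAs tested (1.6% lower and 0.802% higher in irradiated lungs).

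At day 90 all 4 members were measured lower on average in irradiated lungs, and none of these differences passed the test. miR-181a-5p stood at 26633, 25609, 30323 and 22753 CPM in controls and at 24544, 23531, 26230 and 21420 CPM in irradiated lungs. The sets overlapped (log2 fold change -0.14 ± 0.10, adjusted p = 0.683). miR-181b-5p ranged over 3805 to 5217 CPM among controls and 3540 to 4344 CPM among irradiated lungs, with a log2 fold change of -0.16 ± 0.13 (adjusted p = 0.683).

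miR-181c-5p was the most variable member at day 90, at 5292, 4692, 6102 and 3782 CPM in controls and 4272, 3746, 5551 and 2516 CPM in irradiated lungs. Irradiated library 4 was lowest, and irradiated library 3 lay above 3 of 4 controls. Its log2 fold change was -0.30 ± 0.23, with a 95% interval from -0.82 to 0.21 (adjusted p = 0.683). For miR-181d-5p the log2 fold change was -0.13 ± 0.19 (adjusted p = 0.880). The test called 0 of 4 members at day 90, against 0.358% of all 558 miRNAs tested, which were higher in irradiated lungs, and groups did not overlap for 0 of 4 members, against 7.17% of all miRNAs (2.33% lower, 4.84% higher).

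At day 180, miR-181b-5p, the member known for dampening NF-κB signalling in endothelium, had the log2 fold change of largest size among the members. It stood at 3973, 3796, 4019 and 3442 CPM in controls and at 1454, 4084, 2910 and 2422 CPM in irradiated lungs. In 3 of the 4 irradiated libraries it lay below every control, and in irradiated library 2 above every control. The log2 fold change was -0.49 ± 0.28 (95% interval -1.12 to 0.14, adjusted p = 0.404).

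That value depended on single libraries. Without irradiated library 1, the one that stood apart, it was -0.29 (adjusted p = 0.352), and without irradiated library 2 it was -0.77 (adjusted p = 0.151). In irradiated library 1, 3523 counts of miR-181b-5p were recorded against 71013 of miR-181a-5p, a ratio of 20.2, where all other libraries had ratios of 5.54 to 8.45.

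The other members at day 180 had log2 fold changes of smaller size. miR-181a-5p stood at 24467, 23929, 27191 and 27624 CPM in controls and at 29311, 26149, 21025 and 20455 CPM in irradiated lungs, so irradiated libraries lay on both sides of the controls (log2 fold change -0.09 ± 0.14, adjusted p = 0.752). Leaving out 1 library gave log2 fold changes of miR-181a-5p from -0.204 to 0.000696. miR-181c-5p ranged from 4372 to 5266 CPM among controls, while irradiated libraries gave 4295, 5242, 3715 and 3478 CPM, 3 of them below every control (log2 fold change -0.20 ± 0.18, adjusted p = 0.581). For miR-181d-5p, irradiated library 1 was the lowest of all 24 at 139 CPM, and the log2 fold change of -0.15 ± 0.28 (adjusted p = 0.793) became 0.006 without it. The test called 0 of 4 members at day 180 and 0% of the 552 miRNAs tested (101 had an unadjusted p under 0.05, and DESeq2 called 28), and groups did not overlap for 0 of 4 members, against 12% of all miRNAs (6.52% lower, 5.43% higher). The median log2 fold change of the 4 members was -0.17, beside 0.13 over all 552 miRNAs. The median over all miRNAs moved with the processing, and was 0.02 with limma-voom and 0.15 with DESeq2.

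**Figure D2:**
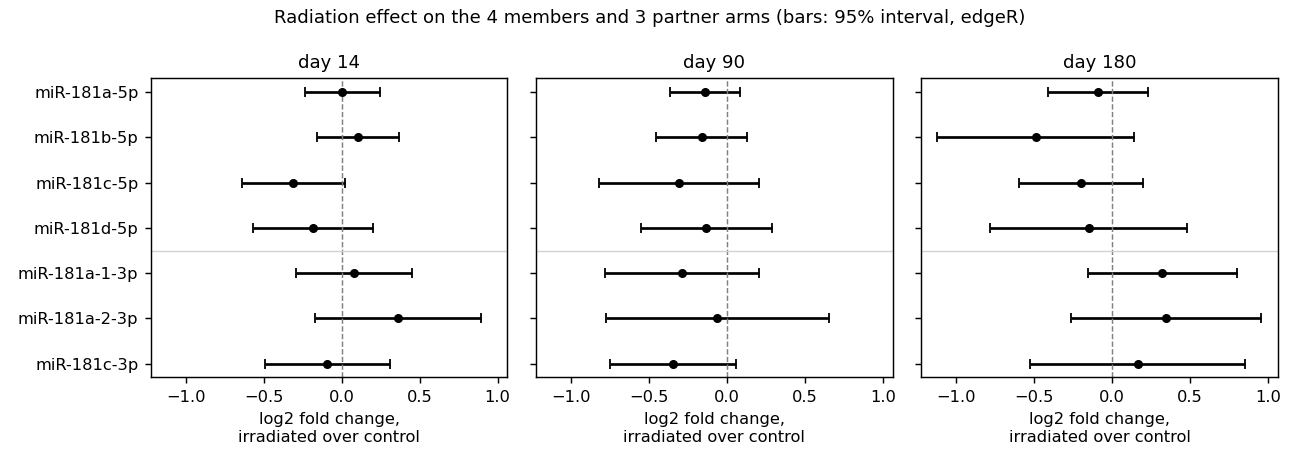
Log2 fold change of irradiated over control lungs with its 95% interval (edgeR) for the 4 members and the 3 measurable partner arms of their hairpins, by day. Every interval includes 0, and that of miR-181b-5p at day 180 is among the widest, from -1.12 to 0.14.

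The difference of the radiation effect between days was tested directly, in 1 fit of all 24 libraries over 624 miRNAs. For miR-181b-5p the effect at day 180 minus that at day 14 was -0.61 ± 0.29 on the log2 scale (adjusted p = 0.413, edgeR). Without irradiated library 1 of day 180 it was -0.41 (adjusted p = 0.435), and without irradiated library 2 of day 180 it was -0.80 (adjusted p = 0.0816). None of the 12 member differences between days passed the adjusted threshold. Of all 624 miRNAs, 0% passed in any of the 3 comparisons of days (28, 71 and 91 had an unadjusted p under 0.05, and DESeq2 called 1, 3 and 2).

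miR-181b is known as a brake on NF-κB, and 4 miRNAs of genes that NF-κB induces were read beside it. At day 180, miR-146a-5p, a feedback inhibitor of Toll-like receptor signalling, stood at 11692 ± 1301 CPM in control and 10705 ± 1672 CPM in irradiated lungs (adjusted p = 0.691). miR-146b-5p was at 2181 ± 415 and 4190 ± 2194 CPM (log2 fold change 0.94, adjusted p = 0.259), with irradiated libraries 3 and 4 above all controls. The other two were added after their values were seen. miR-155-5p, which is induced in activated leukocytes, stood at 493, 493, 518 and 315 CPM in controls and 641, 535, 965 and 2015 CPM in irradiated lungs, with all irradiated libraries above all controls (log2 fold change 1.19 ± 0.42, adjusted p = 0.259). miR-147-3p was rare, with 6 to 21 counts in controls and 18 to 149 in irradiated libraries (log2 fold change 2.48 ± 0.66, adjusted p = 0.163). None of the 4 passed the test in either direction at day 180 or day 90, nor did the 3 that could be tested at day 14. At day 180 the median log2 fold change of the 4 was 1.07, beside 0.13 over all 552 miRNAs tested. That median includes miR-155-5p and miR-147-3p, which were added with their values seen, so no conclusion is drawn from it.

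Lymphocyte miRNAs bear on a family that is abundant in these cells. None of the 4 listed lymphocyte miRNAs passed the test at any day. At day 14 all 4 were measured lower in irradiated lungs (median log2 fold change -0.20), and at day 180 only 1 was (median 0.19). At day 90 all 4 were measured lower in irradiated lungs, with a median log2 fold change of -0.60, and miR-150-5p, a miRNA of mature B and T cells, had -0.63 ± 0.18 (adjusted p = 0.193). The summed level of the list at that day ranged from 16219 to 27430 CPM over controls and from 11422 to 17280 CPM over irradiated libraries, and its part in the members' values was not tested. In whole lung, fewer cells of a type and less RNA per cell cannot be told apart.

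The second comparison followed the family in control lungs from day 14 to day 180. These levels use 1 scaling over all 12 controls, so they are not the numbers given above for each day. miR-181d-5p stood at 521, 531, 469 and 566 CPM in the day 14 libraries. Day 90 gave 290, 314, 297 and 276 CPM, and day 180 gave 267, 235, 190 and 225 CPM. Each later set lay wholly below each earlier one. Means were 522 ± 40.0, 294 ± 15.8 and 229 ± 31.6 CPM (SD, n = 4).

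By edgeR, miR-181d-5p fell from day 14 to day 180 by 1.18 ± 0.14 on the log2 scale, to 0.44 of its day 14 level (95% interval -1.49 to -0.88, adjusted p = 0.00139). This was the smallest p of the 564 miRNAs tested in controls, although it ranked 24 by the size of the fall. It was the only 1 of 4 members called, beside 8.69% of all miRNAs called in this comparison and 6.21% called lower (2.48% higher). From day 14 to day 90 it fell by 0.83 ± 0.14 (adjusted p = 0.0146), again 1 of 4 members called, beside 3.55% of all miRNAs (2.48% lower, 1.06% higher). From day 90 to day 180 the change was -0.36 ± 0.14 (95% interval -0.66 to -0.05, adjusted p = 0.208). No member passed there, and 0% of all miRNAs did (99 had an unadjusted p under 0.05, and DESeq2 called 32).

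**Figure D3:**
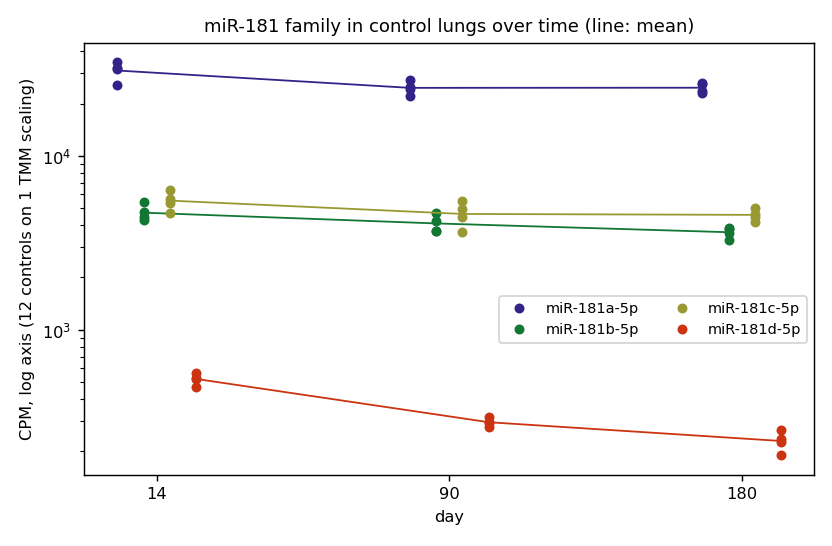
Level of each member in the 12 control libraries (CPM on a log axis, single scaling) against day; points are libraries and lines join the means. miR-181d-5p steps down from 522 to 294 to 229 CPM, while the log2 changes of the other 3 members at day 180 lie between -0.27 and -0.37.

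The fall of miR-181d-5p to day 180 was called in every alternative run on the controls, with log2 fold changes from -0.99 to -1.27 and adjusted p of at most 0.00896. Without control library 2 of day 14, the one with muscle miRNAs, it was -1.15 (adjusted p = 0.00679). Controls of equal replicate number had correlations of 0.108 to 0.230 between day 14 and day 180. Between day 14 and day 90 the correlations were -0.152 to 0.0533, and between day 90 and day 180 -0.225 to 0.12. With the numbers as a block the value at day 180 was -1.19 (adjusted p = 0.00896) while the count over all miRNAs went from 49 to 25. The call at day 90 was less stable: without control library 2 of day 14 the value was -0.79 (adjusted p = 0.0623), and without control library 4 of day 14 it was -0.78 (adjusted p = 0.0561).

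miR-181a-5p stood at 25590, 31708, 34525 and 32065 CPM in the day 14 libraries. Day 90 gave 24800, 24163, 27420 and 22109 CPM, and day 180 gave 23587, 22855, 25840 and 26389 CPM. At day 14, 3 of the 4 libraries lay above all later ones, and library 1 lay among them. The log2 fold changes against day 14 were -0.33 ± 0.10 at day 90 (adjusted p = 0.0787) and -0.33 ± 0.10 at day 180 (adjusted p = 0.0602). Without control library 1 of day 14 they were -0.41 (adjusted p = 0.0156) and -0.40 (adjusted p = 0.0151), so 1 library decided that call.

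miR-181b-5p stood at 4266, 4735, 4460 and 5405 CPM in the day 14 libraries. Day 90 gave 4251, 3694, 4717 and 3698 CPM, and day 180 gave 3830, 3626, 3819 and 3288 CPM. All 4 day 180 values lay below all 4 of day 14, and day 90 overlapped both. The log2 fold change at day 180 was -0.37 ± 0.11 (adjusted p = 0.0602), and with DESeq2 it passed (adjusted p = 0.0358). For miR-181c-5p it was -0.25 ± 0.13 at day 90 (adjusted p = 0.272) and -0.27 ± 0.13 at day 180 (adjusted p = 0.231). Groups did not overlap for 2 of 4 members between day 180 and day 14, b and d, both lower, against 11.7% of all miRNAs lower and 7.98% higher. For day 90 against day 14 this held for 1 of 4 members, d, against 7.45% (5.67% higher), and for day 180 against day 90 for 1 of 4, again d, against 7.09% (6.21% higher).

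All 4 members were lower at both later days than at day 14, with a median log2 fold change of -0.29 at day 90 and -0.35 at day 180, beside -0.01 and 0.02 over all 564 miRNAs. That size depended on the scaling. With each table's total in place of the scaling factors the median over all miRNAs was 0.21 at both days. The values at day 90 and day 180 were then -0.11 and -0.13 for a, 0.01 and -0.18 for b, and -0.04 and -0.08 for c, while d still fell, by 0.61 and 0.99.

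**Figure D4:**
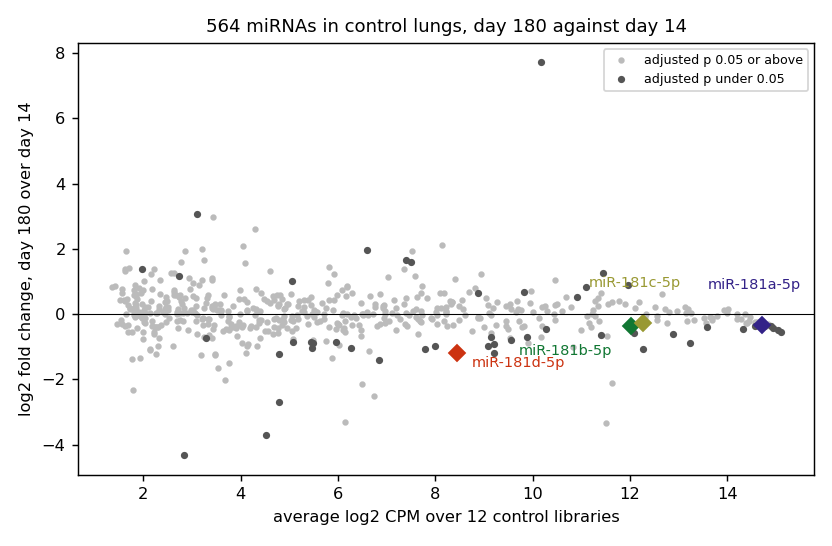
Log2 fold change of day 180 over day 14 against average log2 CPM for the 564 miRNAs tested in 12 control libraries; dark points have an adjusted p under 0.05 and diamonds are the 4 members. miR-181d-5p lies at -1.18, apart from the other 3 members between -0.27 and -0.37.

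Each day has its own deposited table, so day and table cannot be told apart in this comparison. A miRNA outside the family, miR-199a-3p, singled out after its values were seen, stood at 4144 to 5891 CPM in day 14 controls and at 2267 to 3517 CPM at day 90, scaled within each day, but at 25.8, 9.08, 4.66 and 2266 CPM in the 4 controls of day 180. The 12 irradiated libraries come from the same 3 tables, and this second set was read after seeing the data. In them miR-181d-5p stood at -0.81 at day 90 (adjusted p = 0.170) and fell by 1.13 at day 180 (adjusted p = 0.0186) against day 14. miR-181b-5p fell by 0.95 at day 180 in the irradiated libraries (adjusted p = 0.0266). Without irradiated library 1 of day 180, miR-181d-5p fell by 0.77 at day 90 (adjusted p = 0.0442) and by 0.98 at day 180 (adjusted p = 0.0141), miR-181b-5p by 0.75 at day 180 (adjusted p = 0.0131), and miR-181a-5p by 0.46 (adjusted p = 0.0178) and 0.52 (adjusted p = 0.00794).

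Other miRNAs moved in the controls over the same days. Of the 2 endothelial miRNAs, 1 fell at both later days: miR-126a-3p, by 0.55 at day 90 (adjusted p = 0.0146) and by 0.55 at day 180 (adjusted p = 0.00509). In the epithelial list 2 of 5 fell at both days: miR-200b-3p by 0.56 at day 90 (adjusted p = 0.0381) and 0.57 at day 180 (adjusted p = 0.0220), and miR-200c-3p by 0.57 (adjusted p = 0.0226) and 0.41 (adjusted p = 0.0412). Of 4 lymphocyte miRNAs, 1 fell at day 180, miR-342-3p by 0.46 (adjusted p = 0.0321). By day, the summed level of the 5 epithelial miRNAs had ranges of 44199 to 47630, 33593 to 41908 and 38498 to 41338 CPM. For the 2 endothelial miRNAs the ranges were 47732 to 60421, 36532 to 38971 and 39751 to 44109 CPM. None of the 4 smooth muscle and fibroblast miRNAs passed, though all 4 were lower at day 90 (median log2 fold change -0.53) and 3 of 4 at day 180 (median -0.18), and their summed level spanned 40137 to 50751, 33531 to 39270 and 31432 to 40760 CPM. That list includes miR-199a-3p, whose uneven day 180 values are given above, so the summed level at day 180 carries them. Some markers were measured higher than at day 14, none of them called: 1 of 5 epithelial at day 90, and 2 of 5 epithelial and 1 of 2 endothelial at day 180. All 3 leukocyte and myeloid miRNAs were measured higher at both later days (median log2 fold change 0.45 and 0.52), and none passed. No marker of these lists was at 0. Their part in the fall of miR-181d-5p was not tested.

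The clusters were then compared within each library, where no scaling enters. The ratio of a plus b counts to c plus d counts spanned 5.26 to 6.68 (day 14), 5.53 to 6.53 (day 90) and 5.71 to 6.07 (day 180) in controls. Its means were 5.92 ± 0.60, 5.88 ± 0.46 and 5.89 ± 0.18 (SD, n = 4), so the balance of the clusters in control lungs differed between days by less than its spread. In irradiated lungs the means were 7.48 ± 1.32, 6.83 ± 1.67 and 6.17 ± 0.61. Without library 1 of day 180 the last was 5.91 ± 0.39 (n = 3). At day 14, 3 of 4 irradiated libraries were above all controls, and in 4 of 4 pairs of equal number the irradiated library had the higher ratio. The labels do not give these pairs, and c, lower in the same pairs, makes up most of c plus d. How many of all miRNAs had pairs that all went the same way was not counted. As unpaired groups, control and irradiated ratios overlapped at each day.

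Within the c and d cluster the balance shifted with the day. The ratio of c to d in controls spanned 9.04 to 12.1 (day 14), 13.3 to 18.6 (day 90) and 16.8 to 26.3 (day 180), with means of 10.6 ± 1.36, 15.7 ± 2.47 and 20.4 ± 4.28. All libraries of both later days lay above all of day 14. Irradiated lungs had 9.78 ± 1.11, 14.0 ± 3.11 and 20.5 ± 7.06, and overlapped the controls at each day. Without library 1 of day 180, which had 31.0, the last was 17.05 ± 1.47 (n = 3). The share of miR-181d-5p in the family went from 1.26% to 0.88% and 0.70% in controls. The ratio of the clusters hardly moves with such a shift, since c is far above d.

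The ratio of b to d, which differ by the single base C12U, spanned 8.19 to 9.55 (day 14), 11.8 to 15.9 (day 90) and 14.3 to 20.1 (day 180) in controls. At day 180 the irradiated libraries had 10.5 to 14.1, all below all controls. At days 14 and 90 the groups overlapped. The ratio of a to b in controls was 6.59 ± 0.84, 6.04 ± 0.34 and 6.81 ± 0.85, and in irradiated lungs 6.16 ± 0.36, 6.12 ± 0.46 and 10.6 ± 6.45, the last one raised by library 1 with 20.2 and without it 7.36 ± 1.03 (n = 3). These ratios are descriptions with no test. They are among several shares and ratios read at each day, most of which overlapped between control and irradiated lungs. How often such a separation arises over all miRNAs was not measured for ratios.

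**Figure D5:**
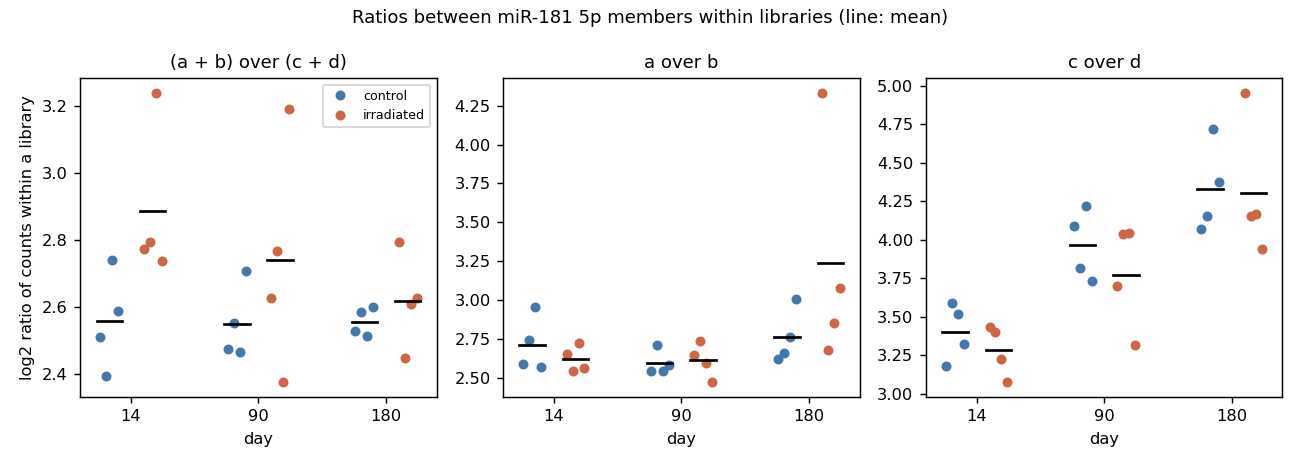
Log2 ratios of counts within each library for a plus b over c plus d, a over b and c over d, by day, for control (blue) and irradiated (red) lungs; lines are means of 4 libraries. The c over d ratio rises with the day in both groups, while the cluster ratio of controls stays near 2.56.

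The other arms of the hairpins tell the 2 a loci apart, and their sequences are shown for that reason, again with bases 2 to 8 in capitals (RefSeq, GRCm38.p6).
miR-181a-1-3p: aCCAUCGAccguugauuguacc
miR-181a-2-3p: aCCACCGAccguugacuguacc
miR-181c-3p: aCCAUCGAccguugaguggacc

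The first of these comes from chromosome 1 and the second from chromosome 2, and they differ by U5C and U16C, the former within the seed. miR-181c-3p differs from miR-181a-1-3p by U16G and U19G outside the seed. The 3p arms of both b hairpins and of d had 0 to 6 counts in a library, under the filter, and were not tested.

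miR-181a-1-3p had 473 to 1215 counts and miR-181a-2-3p 76 to 322 counts. The chromosome 1 arm was more abundant in all 24 libraries, with a mean ratio in controls of 5.08 ± 1.58, 5.38 ± 1.17 and 4.40 ± 0.99 by day. Stable 3p arms need not reflect how much 5p each locus gives. The 5p arm of a exceeded its 3p arms together 132-fold, 86.6-fold and 105-fold in controls of day 14, 90 and 180, and c-5p exceeded c-3p 200-fold, 135-fold and 194-fold. In controls the 3 tested arms were all measured higher at day 90 than at day 14 (median log2 fold change 0.33), where all 4 members were lower. Control library 1 of day 90 was far above the others for both a arms, and had an a-5p to 3p ratio of 59.9. By median over the controls, miR-181a-1-3p (193 to 226 CPM) and miR-181c-3p (29.2 to 35.7 CPM) were higher at day 90. The median of miR-181a-2-3p was lower (44.7 to 38.9 CPM). At day 180, 1 of the 3 arms was higher than at day 14 (median -0.02). No arm passed in these comparisons.

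At day 180, miR-181a-1-3p stood at 200, 202, 205 and 194 CPM in controls and at 246, 253, 229 and 273 CPM in irradiated lungs. All irradiated libraries lay above all controls, a pattern that 5.43% of the 552 miRNAs tested had in that direction. The log2 fold change was 0.32 ± 0.21 and did not pass the test (adjusted p = 0.453, edgeR). In the same libraries the ratio of a-5p to its 3p arms spanned 95.3 to 113 among controls and 60.0 to 91.4 among irradiated lungs, all below. Like the other ratios read at each day, it was not tested. None of the 3 arms passed in any comparison of irradiated with control lungs.

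Over the 24 libraries, levels centred within each day were compared between miRNAs (log2 CPM, 480 miRNAs kept at all 3 days, which share libraries and depth). Within the family, a and c had a Pearson r of 0.68 (Spearman rho 0.678) and c and d 0.53 (rho 0.529). For a and d, r was only 0.0251 (rho 0.0626), and 0.283 without irradiated library 1 of day 180. Pairs with b also depended on irradiated library 1 of day 180. For a and b, r was 0.167 (rho 0.472) and 0.662 without that library, for b and d it was 0.699 (rho 0.543) and 0.491, and for b and c 0.405 (rho 0.61) and 0.57. The closest miRNAs outside the family were miR-26a-5p (0.887), miR-451a (0.875) and miR-10a-5p (0.833) for a, and miR-151-5p (0.838), miR-203b-3p (0.679) and miR-7044-3p (0.665) for c. For b they were miR-664-3p (0.854), miR-669f-5p (0.850) and miR-574-3p (0.809), which became 0.577, 0.682 and 0.583 without the 2 libraries farthest from the median of b. For d they were miR-30c-5p (0.725), miR-195a-5p (0.687) and miR-669b-5p (0.681). Without the 2 libraries farthest from the median of d these became 0.585, 0.654 and 0.483.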

How the data were processed

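Small RNA of mouse lung was sequenced in 24 libraries. Per the labels' protocols, Trizol RNA of 18 to 30 bases was taken from a gel, joined to adaptors and amplified. For each day the authors deposited raw read counts and RPM of mature miRNAs. Computed from both, the deposited RPM rests on a library total of 11984014 to 16081435 reads, whose content no source states. Per the submitters' processing notes, Bowtie2 (no version or role given) and GRCm38.p6 were used, while the counting tool and annotation are not given in the sources used here.

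Counts of each day were fitted alone, on the whole table, with edgeR 4.0.16 (R 4.3.3): filterByExpr, TMM scaling, the quasi-likelihood F-test in its legacy form and Benjamini-Hochberg adjustment over all miRNAs tested, with a threshold of 0.05. The 1477 miRNAs shared by the tables entered the fit of the 12 controls (564 tested) and that of all 24 libraries (624 tested). The SE was derived from the F statistic and is approximate. CPM are TMM-scaled counts, and correlations use log2 CPM with a prior count of 2. Total counts of 2832205 to 3695133 gave members at least 336 counts, and errors come from the spread between libraries. Libraries with the same number deviated together at day 14 (correlations of 0.172 to 0.465). At day 90 this held for some numbers only (-0.224, 0.355, 0.168 and 0.0253), and at day 180 for none (-0.356 to -0.0934).

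The members, their partner arms and, for each member, the 3 most correlated miRNAs outside the family are named, and from each marker list those that passed the test and otherwise at most 2, the most abundant. miR-206-3p, miR-205-5p, miR-155-5p, miR-147-3p and miR-199a-3p were named after their values were seen. Members and lists were chosen with earlier results of these data known. Marker lists were of lung and other cell types and of NF-κB responsive miRNAs. Alternatives were other scalings, filters, DESeq2 1.42.0, limma-voom (limma 3.58.1), a replicate block and leaving out each library. The fits were tested on simulated data.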

Additional observations from a re-analysis of the deposited data

Results flagged for a closer look

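In groups of 4 libraries, a value was singled out where its gap to the nearest other library took more of the group's range than Dixon's 95% critical value allows. Of 66 groups checked, 4 were singled out, and chance gives about 1 in 20, or 3.3.

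miR-181a-1-3p stood at 351.6 CPM in control library 1 of day 90, against 224 to 244 CPM in the other 3 libraries. miR-181a-2-3p was also high in that library, at 93.2 CPM against 36.6 to 45.0 CPM. The log2 ratio of a plus b to c plus d was 3.24 in irradiated library 3 of day 14, against 2.74 to 2.80 in the others, and without it the group mean was 2.77. The log2 ratio of miR-181a-1-3p to miR-181a-2-3p was 2.31 in irradiated library 1 of day 90, against 2.00 to 2.04 in the others.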

How the results depend on the processing

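In the 3 comparisons of irradiated with control lungs and the 3 of the radiation effect between days, 0 members were called under every alternative run. The count over all miRNAs did move. With DESeq2 it was 1, 19 and 28 at day 14, 90 and 180, with no filter 7, 18 and 18, and with all 24 libraries in a single fit 1, 0 and 32. At day 90 it was 5 with upper-quartile scaling, 0 with a mean of at least 10 CPM and 0 with the replicate block. Leaving out 1 library gave 0 to 1, 0 to 7 and 0 to 5. For the effects between days it was 1, 3 and 2 with DESeq2, 0 to 18 (day 180 minus 14) and 0 to 10 (day 180 minus 90) without 1 library.

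In controls at day 90 against day 14 (20 miRNAs called), the count was 8 with upper-quartile scaling, 39 with table totals, 13 with no filter, 51 with DESeq2, 7 with the replicate block, 7 in the irradiated libraries (56 without library 1 of day 180) and 0 to 25 without 1 library (lowest without day 14 library 4, then 1 without day 14 library 2); members called were 0 to 2 without 1 library and 0 in the irradiated libraries (2 without library 1 of day 180). At day 180 against day 14 (49) it was 20 with upper-quartile scaling, 32 with RPM totals, 83 with DESeq2, 25 with the replicate block, 76 in the irradiated libraries (113 without library 1 of day 180) and 15 to 42 without 1 library (lowest without day 14 library 2, then 19 without day 14 library 4); members called were 2 with DESeq2, 2 in the irradiated libraries (3 without library 1 of day 180) and 1 to 2 without 1 library. At day 180 against day 90 (0 called, 99 at an unadjusted p under 0.05) it was 3 with upper-quartile scaling, 32 with DESeq2, 7 with limma-voom, 18 in the irradiated libraries (29 without library 1 of day 180) and 0 to 4 without 1 library.

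Signs that turned were those of values near 0. For miR-181a-5p at day 14 it was -0.00696 with table totals, -0.0302 with RPM totals, -0.00458 with no filter and -0.0437 to 0.0802 without 1 library. At day 180 without 1 library, miR-181a-5p had -0.204 to 0.000696 and miR-181d-5p -0.348 to 0.00598. With table totals, miR-181b-5p in controls at day 90 had 0.0137, and log2 ratios of control means to day 14 were -0.11 and -0.13 for a, 0.0135 and -0.18 for b, -0.0791 at day 180 for c and -0.61 at day 90 for d. Libraries of equal number deviated together only in part at day 90 and not at day 180, and the block changed no call of a member. The cause of these moves was not tested.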
